A study of Labroides dimidiatus with 18 samples.

Results

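Forebrain slices of 5 female bluestreak cleaner wrasse (Labroides dimidiatus) from a site called The Crest, labelled high density, were compared with slices of 7 females from the site labelled Osprey collection, of low density. The fish were chosen by these labels, with earlier results of these data known. They are 12 of the 18 fish in the series, which also holds 3 from Clam Gardens and 3 from Watson's Bay. Each library came from 1 fish, and the density and site are the treatment the labels give, with no genotype or age. Death followed capture by minutes, a time that differed between fish and is not given for each. The labels do not say what the density counts. Each density is represented by a single site here, so density and site cannot be told apart.

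The cleaner wrasse lives by picking parasites off the skin and gills of other reef fish, its clients, and is used to study how fish recognise partners, cooperate and cheat. The slice held pallial areas Dl and Dm, regarded as the fish counterparts of the mammalian hippocampus and basolateral amygdala, with parts of the septum and striatum. In vertebrates these regions take part in spatial memory, emotional learning, social recognition and reward. Libraries were read from the 3' ends of polyadenylated RNA, so a count stands for a read near the end of a transcript. The files give identifiers without gene names or sequences. The function of a gene model therefore cannot be stated, and the labelled tissue could not be checked against marker genes. In a bulk slice, fewer cells of a type and less RNA per cell cannot be told apart.

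Counts in Labroides gene models were higher on average at The Crest, at 66771 ± 23913 per fish (SD, n = 5, range 32548 to 88153), than at Osprey, at 39853 ± 9419 (SD, n = 7, range 29681 to 54648). The Crest fish 15, with 32548 counts, was shallower than the other 4 Crest fish, which had 51113 or more. The difference in depth had an exact two-sided permutation p = 0.0265, and an adjusted p = 0.123 over 11 measures of the libraries. More gene models had at least 1 count at The Crest, at 7261 ± 1387 against 5842 ± 594 at Osprey (exact permutation p = 0.0417, adjusted p = 0.123). After each library was thinned to 29681 counts, the numbers were 5223 ± 263 at The Crest and 5171 ± 90.7 at Osprey (exact permutation p = 0.682, adjusted p = 0.750). Gene models took 7.03% ± 0.537 of all records at The Crest and 6.41% ± 0.397 at Osprey, a difference with an adjusted p = 0.123 (exact permutation test). Differences in depth and detection therefore accompany the comparisons below, and their part was examined by thinning and by a fit with library size as a covariate.

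Overall profiles were more alike within the sites than between them. Across the 769 gene models abundant enough to test, thinned to equal depth, log2 levels of pairs of Crest fish had a mean Pearson r of 0.871 (10 pairs) and pairs of Osprey fish 0.878 (21 pairs), against 0.848 for pairs from different sites (35 pairs). The mean distance, 1 minus r, was 0.0276 larger between sites than within them. No other assignment of 12 fish to groups of 5 and 7 gave a larger gap (exact one-sided permutation p = 0.00126, the smallest of 792 assignments, adjusted p = 0.0139). Leaving out the 16 models called below reduced the gap to 0.0120 (exact one-sided permutation p = 0.00631, unadjusted). The distance test and this check were both added after the data were seen. In 4 of 5 Crest fish and 7 of 7 Osprey fish, the mean r with fish of the same site exceeded that with the other site. The exception was The Crest fish 14, whose mean r was 0.869 with both sites.

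Of the 769 gene models tested, 16 differed between the sites (2.08%, edgeR adjusted p under 0.05), 8 higher (1.04%) and 8 lower (1.04%) at The Crest. The models higher at The Crest had log2 fold changes of 0.78 to 5.97, with a median of 1.78. Those lower there were more uniform in size, from -0.92 to -1.67, with a median of -1.02. Fish of the sites did not overlap for 2 of the 8 higher and 4 of the 8 lower models, against 10 of all 769 models (1.3%), 6 with every Crest fish above (0.78%) and 4 with every Crest fish below (0.52%) every Osprey fish. Calls came mainly from abundant models. Among the 100 most abundant, 3 were higher and 4 lower, among the next 300, 5 were higher and 2 lower, and among the remaining 369, 0 were higher and 2 lower. Precision fell over these classes, with a median SE of 0.13, 0.207 and 0.284 in that order. The median absolute log2 fold change was 0.165, 0.178 and 0.278. This value grows with the SE, so it does not show the size of real differences in each class. Why calls were fewer among scarce models was not tested.

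Of the higher models, Ldim_g28127 had the largest difference. Its level, in CPM (counts scaled to a common total over the tested models, after correction for composition), was 11940, 3909, 2595, 383 and 5072 in The Crest fish 11 to 15, in that order. In Osprey fish it ran from 0 to 215 CPM with a median of 56.7. Every Crest fish lay above every Osprey fish, although fish 14 stood far nearer to Osprey than the other 4. The counts behind these values were 23 to 670 per Crest fish and 0 to 5 per Osprey fish. The model thus passed the count filter through the Crest fish alone. At Osprey, 0 counts were found in fish 3 and 7, where 3 counts, the limit that a count of 0 allows, correspond to 136 and 77.7 CPM. The mean was 4780 ± 4365 CPM at The Crest (SD, n = 5) and 76.9 ± 77.4 CPM at Osprey (SD, n = 7), a log2 fold change of 5.97 (SE 0.67, 95% interval 4.60 to 7.35, edgeR adjusted p = 3.05e-06). The call ended with limma-voom (log2 5.35, adjusted p = 0.0688). With robust dispersion it was kept at a higher value (edgeR adjusted p = 0.0139), and with a minimum count of 20 the model was below the filter. Without The Crest fish 11 the log2 fold change was 5.27.

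Ldim_g12384 was the other higher model whose fish did not overlap. The Crest fish 11 to 15 had 6130, 7215, 5318, 3348 and 19724 CPM, and Osprey fish 860 to 2797 CPM with a median of 2352. Here fish 15 was the highest and fish 14 again the lowest of The Crest. The mean was 8347 ± 6515 CPM at The Crest (SD, n = 5) and 2133 ± 696 CPM at Osprey (SD, n = 7), a log2 fold change of 1.93 (SE 0.31, edgeR adjusted p = 0.000449). The call ended with robust dispersion (edgeR adjusted p = 0.0694).

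Of the 8 lower models, 4 did not overlap between the sites, and 2 of these are described here. Ldim_g5172 had 7948, 7445, 7140, 9178 and 7749 CPM in The Crest fish 11 to 15, against 10846 to 23621 CPM in Osprey fish (median 17683). The 5 Crest fish thus lay in a narrow band under all Osprey fish. Its mean was 7892 ± 782 CPM at The Crest and 16289 ± 4854 CPM at Osprey (SD, n = 5 and 7; log2 -1.04, SE 0.16, 95% interval -1.38 to -0.70, edgeR adjusted p = 0.000449). Within Osprey, fish 4, 6 and 7 had 11600, 12043 and 10846 CPM, and the other 4 fish 17683 or more.

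Ldim_g414 had 1533, 719, 1840, 2449 and 1127 CPM in The Crest fish 11 to 15, against 2522 to 6245 CPM in Osprey fish (median 4388). The gap between the sites was small, since The Crest fish 14 at 2449 CPM lay next to Osprey fish 6 at 2522 CPM. The mean was 1533 ± 663 CPM at The Crest and 4182 ± 1500 CPM at Osprey (SD, n = 5 and 7; log2 -1.37, SE 0.25, edgeR adjusted p = 0.00142). With library size as a covariate neither lower model was called, at log2 -0.78 (edgeR adjusted p = 0.135) for Ldim_g5172 and -1.28 (adjusted p = 0.152) for Ldim_g414. With robust dispersion the call of Ldim_g414 ended as well (edgeR adjusted p = 0.0813).

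**Figure D1:**
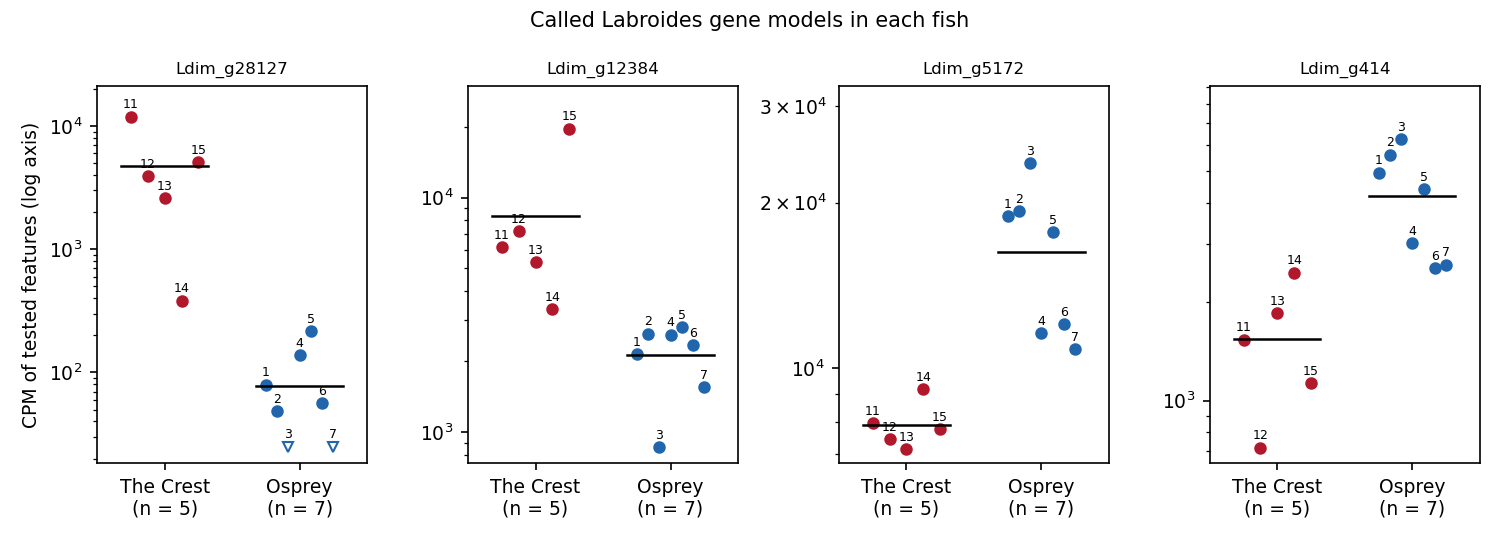
CPM (log axis) of 4 called Labroides gene models in The Crest fish (red, left, n = 5) and Osprey fish (blue, right, n = 7), with fish numbers beside the points, bars at the group means and open triangles for 0 counts, drawn at the foot of the axis. In each panel no Crest fish overlaps an Osprey fish, and The Crest fish 14 is the Crest fish nearest to Osprey.

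The other 6 higher models had log2 fold changes of 0.78 to 2.21 (edgeR adjusted p = 0.00142 to 0.0229), and fish of the sites overlapped in each. Their means ranged from 947 to 13878 CPM at The Crest and from 339 to 3935 CPM at Osprey. In all 8 higher models the lowest Crest fish was fish 14. The highest was fish 15 in 4 of them and fish 11 in 2. Those 4 include models with identifiers within 5 numbers of each other. Whether these are separate genes or share reads is uncertain, so they may not count as independent. Osprey fish 3 was the lowest of Osprey in 5 of the 8.

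The other 6 lower models had log2 fold changes of -0.92 to -1.67 (edgeR adjusted p = 0.00102 to 0.0149), and 2 of them did not overlap. Their means ranged from 113 to 5533 CPM at The Crest and from 435 to 11296 CPM at Osprey. The model at -1.67 had 1 to 12 counts per Crest fish and 7 to 18 per Osprey fish. It thus passed the count filter through the Osprey fish alone. The next largest, at -1.44, had 3 to 19 counts per Crest fish and 11 to 30 per Osprey fish, so it passed mainly through Osprey. In all 8 lower models every Crest fish lay below the Osprey median, and in 7 of the 8 higher models every Crest fish lay above it. Models called for a difference are likely to show this, and the share over all tested models was not counted. Osprey fish 6 or fish 7, the deepest libraries of that site, was the lowest Osprey fish in 7 of the 8. The part of depth in this order was not tested in single fish. After thinning to equal depth, 8 higher and 7 lower models were called of the 15 that could be tested. Over all 12 fish, the fit with library size as a covariate kept 5 higher models and 1 lower model of the 16. Of these 5 higher models, 4 were those highest in The Crest fish 15, the shallowest Crest library. The lower model kept was at its lowest in that fish. In those 4 the log2 fold change rose with the covariate and the SE fell. For Ldim_g12384 they went from 1.93 to 2.49 and from 0.308 to 0.238. The part of fish 15 in these calls was not tested. In the 10 models no longer called, 3 higher and 7 lower, the log2 fold change was 0.696 to 1.01 times that without the covariate (median 0.864). The covariate fit widened the errors, with a median SE over all tested models of 0.325 against 0.241 without it.

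**Figure D2:**
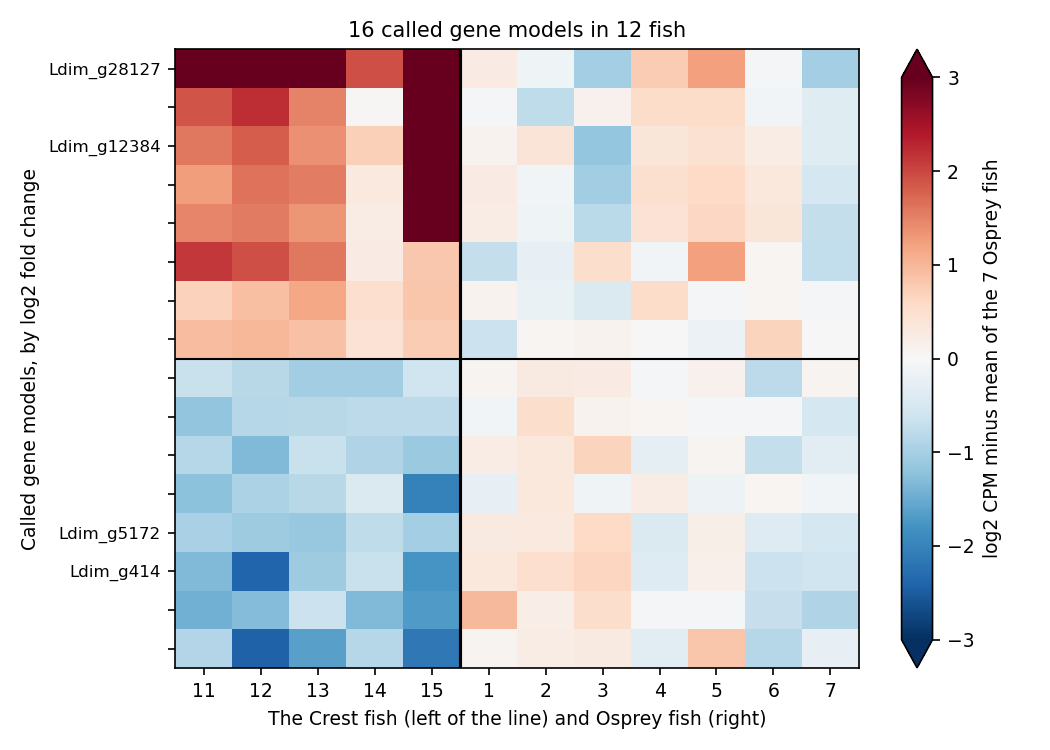
log2 CPM of the 16 called gene models (rows, ordered by log2 fold change, 8 higher above the line and 8 lower below it) minus the mean of the 7 Osprey fish, in The Crest fish 11 to 15 (left of the vertical line) and Osprey fish 1 to 7 (right). Colours end at 3 in either direction. Fish 15 has the strongest values in 4 of the higher models, and fish 14 the palest Crest values in the upper block.

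Taken as sums, the 8 higher models held 2.91% ± 1.86 of the counts in gene models at The Crest (n = 5) and 0.821% ± 0.244 at Osprey (SD, n = 7). The shares in The Crest fish 11 to 15 were 2.63%, 2.58%, 2.19%, 1.09% and 6.05%, and Osprey fish ran from 0.458% to 1.12%. Fish 14 was thus within the Osprey range. The 8 lower models held 1.24% ± 0.272 at The Crest and 2.68% ± 0.511 at Osprey, with no overlap between 0.962% to 1.68% at The Crest and 2.07% to 3.33% at Osprey. These sums describe models chosen for their difference and were not tested. The median SD of log2 CPM among fish was 0.986 at The Crest and 0.579 at Osprey for the higher models, and 0.316 at The Crest and 0.449 at Osprey for the lower ones. Over all tested models it was 0.343 at The Crest and 0.365 at Osprey.

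Most tested models showed little difference. The median log2 fold change was -0.03, the middle of the distribution from the 5th to the 95th percentile ran from -0.63 to 0.54, and 352 models had a positive and 417 a negative value. An unadjusted p under 0.05 was found for 110 models (14.3%), 42 higher (5.46%) and 68 lower (8.84%) at The Crest. For 618 models (80.4%) the 95% interval of the difference lay within 2-fold in either direction, and for 241 (31.3%) within 1.5-fold. Of the 753 models not called, 135 had an interval that reached 2-fold or beyond, so a difference of that size is not excluded for them. Another 4 models not called had every Crest fish above every Osprey fish, with log2 fold changes of at most 0.74 (edgeR adjusted p = 0.142 to 0.367).

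**Figure D3:**
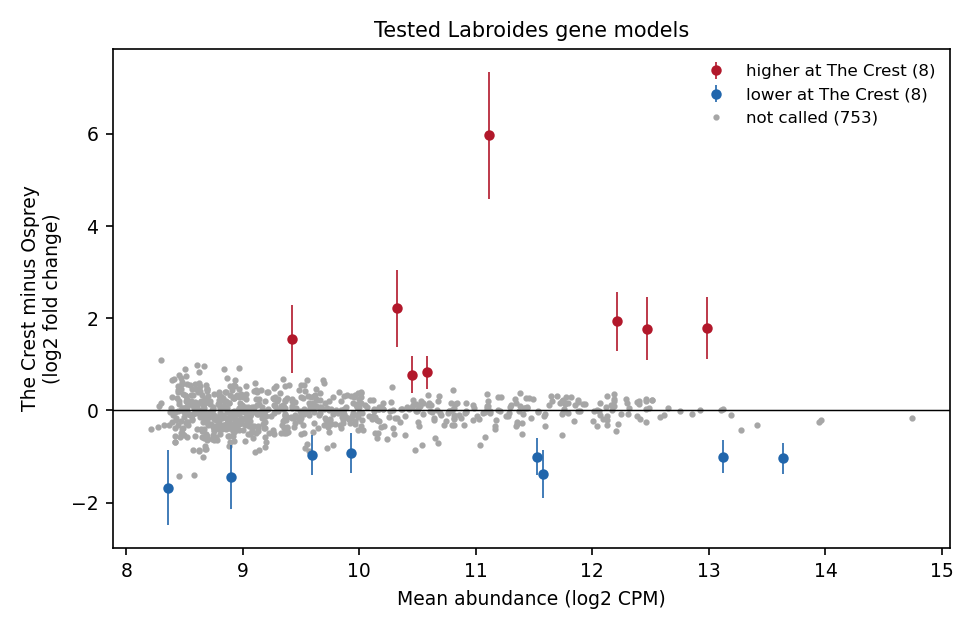
log2 fold change (The Crest minus Osprey) against mean abundance (log2 CPM) for the 769 tested Labroides gene models, with 8 models called higher in red, 8 called lower in blue, both with 95% intervals, and 753 not called in grey. Ldim_g28127 stands alone at 5.97, and the lower models lie between -0.92 and -1.67.

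Below the count filter lay a further group of models that was nearly missing from Osprey fish. DESeq2, which filters differently, called 46 of 3241 models (1.42%), 36 higher (1.11%) and 10 lower (0.309%), including the 16 from edgeR. Of its calls, 28 were outside the 769 tested models, and 27 of these 28 were higher at The Crest, with log2 fold changes of 2.13 to 8.65 and a median of 5.53 (DESeq2 adjusted p = 4.07e-06 to 0.0490). These 27 models had a median of 157 counts summed over the 5 Crest fish and of 3 counts over the 7 Osprey fish. They thus reached the DESeq2 test mainly through the Crest fish, so their fold changes and adjusted p-values are given as a description. For 4 of the 27 models, every Osprey fish had 0 counts. In 24 of the 27, fewer than 5 fish reached 10 counts, which is the number of fish the filter asks for.

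The Crest fish differed widely in this group. The 27 models together took 6.14%, 2.12%, 0.765%, 0.181% and 2.15% of the counts in gene models in The Crest fish 11 to 15. In Osprey fish they took 0.0256% to 0.0782%, with a median of 0.0741% over the 7 fish. Fish 11 had the highest level of all 12 fish in 24 of the 27 models, and fish 14 the lowest of The Crest in 24. Every Crest fish had a larger summed share than any Osprey fish. The models were chosen for this difference, so the shares are a description. At the other sites, Clam Gardens fish 8 had 2.30%, and the remaining 5 fish from Clam Gardens and Watson's Bay had 0.0910% to 0.246%. Watson's Bay fish 20, of low density, was at 0.246%, above The Crest fish 14 at 0.181%. Among the 36 models that DESeq2 called higher, 17 had another of the 36 within 5 identifier numbers. The files give no positions, so whether these are neighbours or copies of each other that share reads is uncertain.

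**Figure D4:**
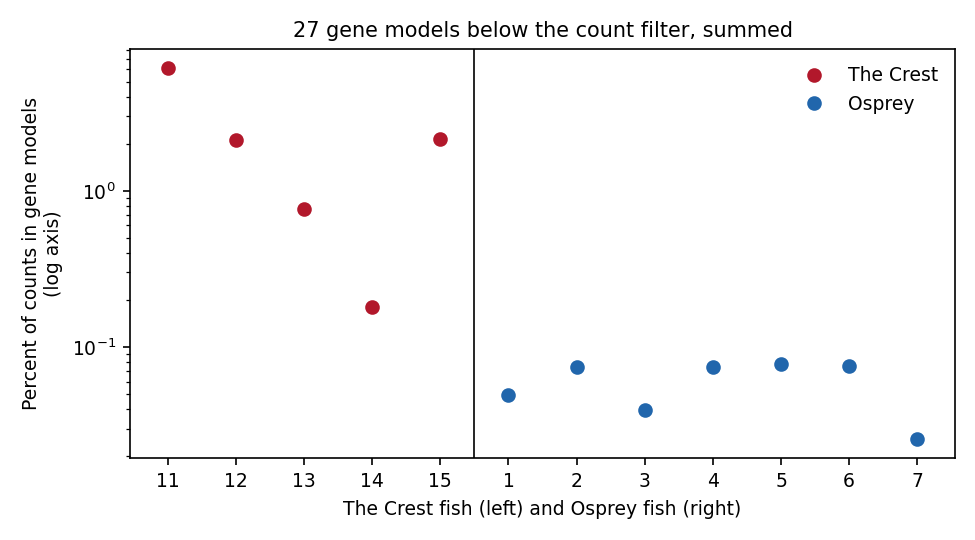
Summed share (percent of counts in gene models, log axis) of the 27 models that DESeq2 called higher at The Crest and that were below the edgeR count filter, in The Crest fish 11 to 15 (red, left) and Osprey fish 1 to 7 (blue, right). The Crest fish run from 0.181% in fish 14 to 6.14% in fish 11, and all Osprey fish are at or below 0.0782%.

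Depth was then made equal by thinning the libraries to 29681 counts, and models were picked by a rule that sets the sites against each other, as a description. Of 12738 models with a count after thinning, 1938 had counts at The Crest only (5 fish) and 2656 at Osprey only (7 fish). The largest sum in such a model was 248 counts at The Crest and 12 at Osprey. Models with at least 10 counts in a fish and at most 3 counts summed over the fish of the other site numbered 22, 7, 3, 0 and 26 in The Crest fish 11 to 15, and 0 in each of the 7 Osprey fish. They held 4.58%, 1.23%, 0.138%, 0% and 2.27% of the thinned counts in those Crest fish. In all, 36 of the 12738 models met this rule, 23 of them in 1 Crest fish only. Fish 11 and fish 15 shared 12 of them, 10 were found in fish 11 and not in fish 15, and 14 in fish 15 and not in fish 11. None of the 36 was among the 769 tested models, and 14 were among the DESeq2 calls. In tilapia transcripts, thinned to 19238 counts, the numbers were 3, 1, 1, 0 and 5 in The Crest fish 11 to 15, with 1 each in Osprey fish 4 and 6 and 0 in the other 5 Osprey fish.

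Counts on transcripts of Nile tilapia (Oreochromis niloticus), a related fish, gave another reading of the same libraries. Of 531 transcripts tested, 6 differed (1.13%, edgeR adjusted p under 0.05), 3 higher (0.565%) and 3 lower (0.565%) at The Crest. An unadjusted p under 0.05 was found for 73 transcripts (13.7%), 25 of them higher (4.71%) and 48 lower (9.04%). Fish of the sites did not overlap for 7 transcripts (1.32%), 2 with every Crest fish above (0.377%) and 5 with every Crest fish below (0.942%) every Osprey fish. Numbers called in each direction moved with the filter in both tables. Without a filter, 14 transcripts were higher and 1 lower, and 92 Labroides models were higher and 7 lower. In that Labroides fit the degrees of freedom behind each variance were 120800, against 24.0 in the main fit. The spread of a single model between fish hardly counted there, so those numbers are not on equal terms with the main calls. With a filter at CPM above 5 in 5 fish, 11 transcripts were higher and 2 lower.

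ENSONIT00000008027.1 had 10748, 3136, 12569, 517 and 5441 CPM (of the tested transcripts) in The Crest fish 11 to 15, against 0 to 2442 CPM in Osprey fish (median 359). Fish 14 was the lowest Crest fish here too, and it lay below Osprey fish 6 at 2442 CPM and Osprey fish 3 at 543 CPM. The mean was 6482 ± 5077 CPM at The Crest and 616 ± 827 CPM at Osprey (SD, n = 5 and 7; log2 3.30, SE 0.59, edgeR adjusted p = 0.00308). The call ended with DESeq2 (adjusted p = 0.745), limma-voom (0.213), robust dispersion (0.178) and library size as a covariate (0.0729). Without Osprey fish 6 the transcript was below the filter, whose level moves with the median library. The transcript had 15 to 357 counts per Crest fish, 51 in Osprey fish 6 and 0 to 7 in each other Osprey fish. It thus passed the count filter mainly through the Crest fish.

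ENSONIT00000003257.1 was the higher transcript whose fish did not overlap. It had 1415, 1837, 3031, 1586 and 2490 CPM in The Crest fish 11 to 15, against 853 to 1389 CPM in Osprey fish (median 1086). The mean was 2072 ± 674 CPM at The Crest and 1099 ± 171 CPM at Osprey (SD, n = 5 and 7; log2 0.87, SE 0.21, edgeR adjusted p = 0.0404). It missed the threshold in 12 of 23 other settings, at adjusted p up to 0.745.

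Of the 3 lower transcripts, 2 did not overlap between the sites and are described here. The third had the largest difference (log2 -1.66, edgeR adjusted p = 0.0260), and its fish overlapped. It had 5 to 9 counts per Crest fish and 8 to 21 per Osprey fish, so it passed the count filter through the Osprey fish alone. ENSONIT00000019817.1 had 1234, 1165, 887, 896 and 1199 CPM in The Crest fish 11 to 15, against 1628 to 4423 CPM in Osprey fish (median 2993). Its mean was 1076 ± 170 CPM at The Crest and 3006 ± 1257 CPM at Osprey (SD, n = 5 and 7; log2 -1.47, SE 0.26, edgeR adjusted p = 0.00308). The call ended in the covariate fit only (edgeR adjusted p = 0.0912). Osprey fish 1 to 4 were at 2993 CPM or more, and fish 5, 6 and 7 at 1802, 1628 and 1834 CPM.

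ENSONIT00000011007.1 had 2469, 2464, 1959, 2586 and 1752 CPM in The Crest fish 11 to 15, against 2854 to 5277 CPM in Osprey fish (median 4429). Fish 6 and 7 were the lowest Osprey fish, as they were for Ldim_g414. The mean was 2246 ± 367 CPM at The Crest and 4045 ± 1017 CPM at Osprey (SD, n = 5 and 7; log2 -0.81, SE 0.19, edgeR adjusted p = 0.0260). It missed the threshold in 13 of 23 other settings, at adjusted p up to 0.583.

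**Figure D5:**
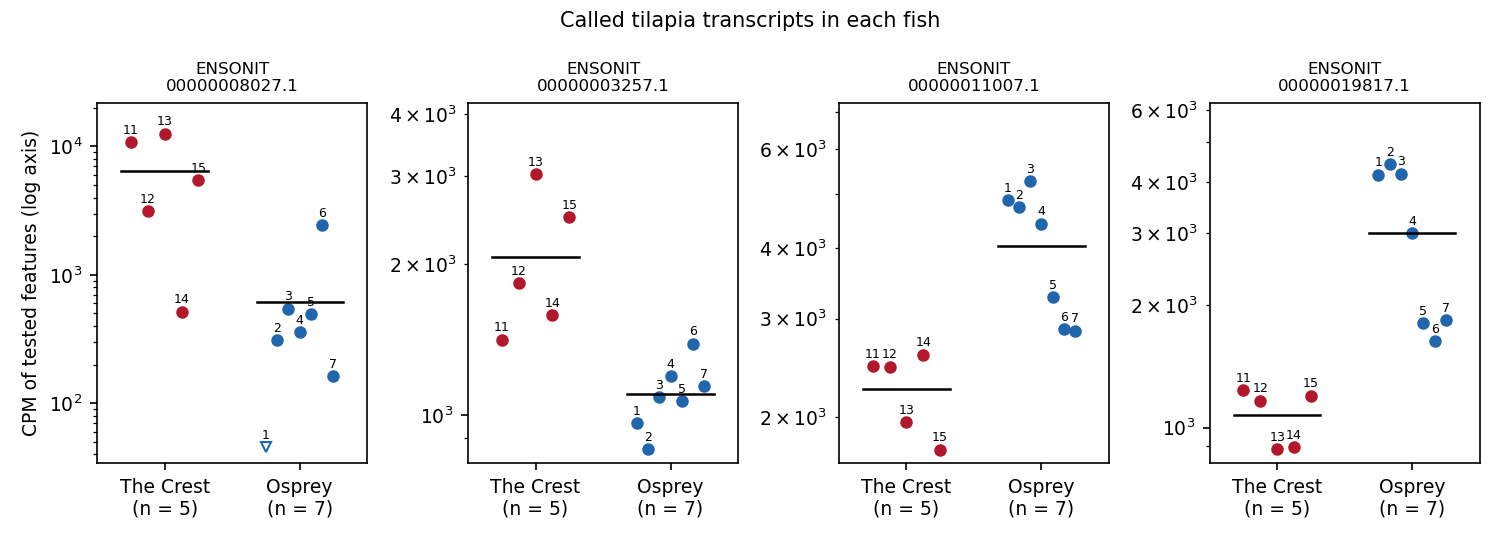
CPM (log axis) of 4 called tilapia transcripts in The Crest fish (red, left, n = 5) and Osprey fish (blue, right, n = 7), with fish numbers, bars at the group means and an open triangle for 0 counts, drawn at the foot of the axis. ENSONIT00000008027.1 overlaps between the sites, and in the other 3 panels the groups are apart.

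The identifiers of the tables are not linked in the files. For each called Labroides model, the tilapia transcript whose deviations from the site means correlated best with those of the model over the 12 fish was looked up among 531. The best Pearson r ran from 0.754 to 0.891 for the 16 models. It stood above the next best by 0.00396 to 0.0902 (median 0.0228), and by more than 0.05 for 4 models, among them Ldim_g5172 at 0.869 against 0.782. For Ldim_g28127 it was 0.772 against 0.762. In 4 of the 16, the model was in turn the best match of its transcript among the tested models, and 2 of these 4 had the same direction. ENSONIT00000008027.1 was the transcript in 1 of those 2, with r = 0.829 against 0.748 for the next best, and its model was also called higher at The Crest. Their sizes differed, at log2 3.30 for the transcript and 0.78 for the model. Ldim_g12384 was also among the 4, with r = 0.812 against 0.797, but its transcript had the opposite sign (log2 -0.14). For Ldim_g414 the transcript, at log2 0.45, had the opposite sign as well. The transcript found this way had the same direction as the model for 11 of 16. Its own difference was as small as log2 0.03 among these 11, and the share for models not called was not looked up. A match of this kind does not show that model and transcript are the same gene, so it gives no firm check of direction for single models.

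The sites left out of the test carry the same density labels, so the direction of the called models was looked up in them as a description. The difference Clam Gardens (n = 3) minus Watson's Bay (n = 3) had the same sign for 5 of the 8 models higher at The Crest (62.5%), against 197 of all 352 tested models with a positive value (56.0%). For the lower models it was 4 of 8 (50%), against 168 of 417 with a negative value (40.3%). Watson's Bay fish 19 was a shallow library, with 0 to 10 counts in each of the 4 named models. Without it, the same sign was found for 6 of 8 higher and 3 of 8 lower models, against 47.2% and 49.2% of all. The shares were not tested. Ldim_g28127 had 4793, 112 and 1428 CPM in Clam Gardens fish 8, 9 and 10, and 238, 0 and 970 CPM in Watson's Bay fish 17, 19 and 20. Ldim_g12384 had 3827, 19630 and 9283 CPM in those Clam Gardens fish, and 3645, 612 and 3161 CPM in those Watson's Bay fish. It was higher at Clam Gardens without overlap, although fish 8 and fish 17 were close and the value of fish 19 rests on 2 counts. With 3 fish per site such a separation carries little weight, and the share over all tested models was not counted. Ldim_g5172 had 15270, 9984 and 13300 CPM in those Clam Gardens fish, and 9196, 1835 and 14170 CPM in those Watson's Bay fish, with overlap between these sites. Ldim_g414 overlapped as well, at 2319, 1346 and 2890 CPM against 1692, 3059 and 3050 CPM.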

How the data were processed

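The authors deposited raw counts for each fish, per the file contents: 28134 Labroides gene models with 5 summary entries, and 26788 tilapia transcripts. Per the submitters' processing notes the tools include cutadapt 2.8, BWA and SAMtools, with no order. How reads were counted, on which strand and build, and whether PCR copies were removed is not given in the sources used here. Counting limits cover counting error only. Summary entries (means of 67.3% at The Crest and 68.8% at Osprey for records outside gene models, 22.1% at The Crest and 21.2% at Osprey for those not aligned) stayed out of all tests.

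Only the 12 fish entered filtering, scaling and testing. Models were kept by filterByExpr (minimum count 10, at least 5 fish), leaving 769 of 14453 with a count, holding 68.0% of gene counts, and 531 of 20861 transcripts. Libraries were scaled by TMM and tested with edgeR 4.0.16 (R 4.3.3, quasi-likelihood F test, site as the single term, Benjamini-Hochberg over all tested). The biological coefficient of variation was 0.194. SE is the log2 fold change over the square root of F. Alternatives used DESeq2 1.42.0 and limma 3.58.1. Log2 levels used a prior count of 2. Library measures used exact permutation over 792 assignments. The test code was tried on simulated counts. All 66 pairs of libraries differed by more than counting noise (chi-square over its degrees of freedom at least 1.35). The labels name no batch, and each library is a separate fish. The tests set the site difference against the spread among fish within the sites. With 1 site per density, their p-values do not cover variation between sites of the same density.

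Identifiers carry no names, so gene and marker lists were not matched. Named are, per table and direction, 2 calls with the largest log2 fold change, those without overlap between sites first. The members and lists were chosen with earlier results of these data known. The distance between fish, the thinned count of detected models, and the descriptions of models below the filter were added after results were seen.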

Additional observations from a re-analysis of the deposited data

Results flagged for a closer look

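In 42 sets of values from the fish of a single site, the distance of the most extreme fish from its neighbour was divided by the whole range (Dixon's test). About 5% of such sets would pass by chance, and 2 did. The Crest fish 15 had 19724 CPM of Ldim_g12384, against 7215 in the next Crest fish. Without it the log2 fold change was 1.38 and the model was still called (edgeR adjusted p = 0.000216). Osprey fish 6 had 2442 CPM of ENSONIT00000008027.1, against 543 in the next Osprey fish.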

How the results depend on the processing

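None of the 16 model calls or 6 transcript calls changed sign in any setting that tested it. Against 16 models called, 8 higher and 8 lower, counts with another filter or fit were 46 with DESeq2 (36 higher), 99 with no filter (92 higher, 1245 models at unadjusted p under 0.05), 75 with CPM above 5 in 5 fish (66 higher), 33 with all 18 fish (26 higher), 10 with limma-voom (3 higher), 12 with robust dispersion (3 higher) and 6 with library size as a covariate (5 higher, 1 lower). Upper-quartile scaling gave 18, library totals alone 16, a minimum count of 20 gave 12 and thinning 18. With no filter and with the CPM filter, the degrees of freedom behind each variance were 120800 and 68840, against 24.0 in the main fit. A model's own spread between fish hardly counted in those fits, so their calls cannot be set against the 16 on equal terms. Leaving out 1 fish gave 13 to 30 calls, 6 to 17 higher and 7 to 18 lower. There were 30 calls without The Crest fish 15 (18 lower), 25 without fish 14 (17 higher), and 14 lower without Osprey fish 7. Against 6 transcripts called, there was 1 with DESeq2 and 1 with limma-voom, 15 with no filter, 13 with the CPM filter, 3 after thinning and 0 with library size as a covariate (64 at unadjusted p under 0.05). Leaving out 1 fish gave 2 to 6, with 2 without The Crest fish 13 or Osprey fish 1, 2 or 3. The causes were not tested. No paired analysis was possible because the sites share no fish numbers.

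Leaving out 1 fish turned the sign of the difference in 2 library measures: the share of gene counts in the 100 most abundant models ran from -0.792 to 0.808 percentage points, and thinned models detected from -51.1 to 130. The gap in distance between sites stayed past the threshold in all 12 such fits (adjusted exact permutation p = 0.0139 with all fish and at most 0.0476).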
